A study of Caenorhabditis elegans with 12 samples.

Results

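The comparison described here asks which genes of Caenorhabditis elegans worms stood at another level after feeding on bovine thymus in any of its prepared forms. It set the mean of 3 thymus diets, each weighted equally and each holding 3 libraries, against 3 control libraries, so that all 12 libraries of the series took part. The diets were desiccated bovine thymus, a cytoplasmic extract of the thymus gland and a nuclear extract of it, and the control carried no label beyond its name. Of 46929 genes in the deposited count table, 14610 had enough reads to be tested.

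All worms grew on nematode growth medium with live bacteria until the L4 larval stage, and the thymus diets began on day 1 of adulthood. The labels name 3 products without saying which product belongs to which diet, and the sources used here do not give the age at collection, the dose or the strain. The tissue label says whole tissue, and messenger RNA was enriched with oligo(dT) beads, although the labels' molecule field says nuclear RNA. The p-values rest on the spread between libraries of the same diet, and differences between the thymus diets do not enter it. Nothing in the labels says that the replicates were separate cultures, so this spread may be technical.

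A worm takes in its diet through the pharynx and digests it in the intestine, a single tube of cells that also stores fat, makes yolk and carries out much of the animal's detoxification. Chaperones are proteins that fold or hold other proteins; the small heat shock proteins and the inducible Hsp70 proteins are made mainly when proteins are damaged, by heat for example, whereas constitutive chaperones are always abundant. Damaged or surplus proteins are cut up by the proteasome, and the hypodermis below the body surface makes the cuticle.

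Library totals ran from 23.1 to 33.4 in units of 1e6 counts. The share of ribosomal RNA was 14.0% in desiccated thymus replicate 3 and between 0.378% and 2.16% in the other 11 libraries, and leaving that library out gave 715 changed genes in the pooled comparison against 1030 with it. The whole tissue label was checked against tissue markers. All 25 germline and oocyte markers, all 16 intestine markers in the table, all 14 hypodermis markers, all 19 body wall muscle markers and 22 of 23 neuron markers had enough reads to be tested, and 44 of 63 sperm markers did. In whole worms, fewer cells of a type and less RNA per cell cannot be told apart.

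Worms on the thymus diets had less RNA of heat-inducible chaperones and slightly less of some constitutive chaperones and proteasome subunits. They had more RNA of some nutrient transporters, detoxifying UDP-glucuronosyltransferases, C-type lectins, fatty acid enzymes and molting genes. In all, 746 genes rose and 284 fell, 1030 of 14610 or 7.05% (quasi-likelihood test of edgeR, p under 0.05 after Benjamini-Hochberg adjustment). That is 5.11% of tested genes higher and 1.94% lower. An unadjusted p under 0.05 was reached by 3503 genes.

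The genes that rose and the genes that fell differed in level and in size of change. Those that rose had a median control level of 6.32 CPM (counts scaled to a TMM-adjusted library total of 1e6) and a median log2 fold change of 0.57. Those that fell had a median control level of 111 CPM and a median change of -0.17, while the median level of all tested genes was 9.50 CPM and their median change 0.00. How far the difference in size follows from level, through the size of change that can pass at each level, was not tested. A change of at least 2-fold was seen in 148 of the 1030 genes, 125 higher and 23 lower. Most changed genes encode proteins: 735 of those that rose and 278 of those that fell, beside 11 and 2 pseudogenes.

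**Figure D1:**
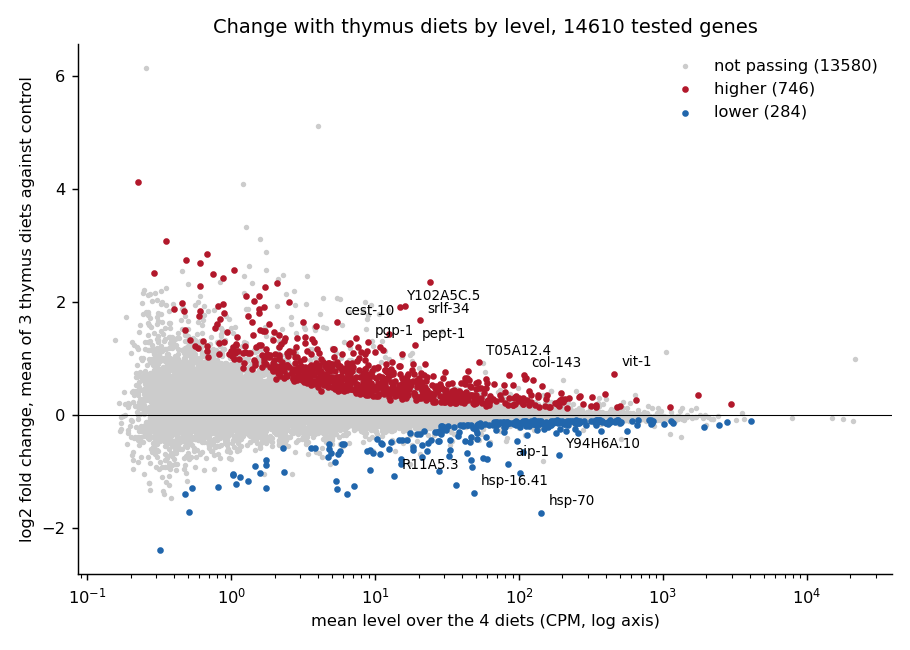
Log2 fold change of the mean of the 3 thymus diets against the control (vertical axis) by mean level over the 4 diets in CPM (horizontal log axis), 1 point per tested gene, with the 746 higher genes in red, the 284 lower genes in blue and the others in grey. The lower genes lie at higher levels and closer to 0 than the higher genes, apart from hsp-70, hsp-16.41 and a few others.

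The split between higher and lower genes depended on the scaling and on the tool. With TMM factors 72.4% of changed genes were higher, with RLE size factors 64.3% and with library totals alone 86.6%. DESeq2, which also uses another test, gave 59.1%. No scaling moved the median change of all genes by more than 0.1 on the log2 scale. Leaving out control replicate 1 gave 569 changed genes, and leaving out control replicate 2 gave 567.

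In 579 of the 1030 genes, 3.96% of those tested, all 9 thymus libraries lay beyond all 3 controls. Of these 417 were above (2.85%) and 162 below (1.11%). Such a lack of overlap, with or without a call, was seen in 6.18% of tested genes, 4.08% above the controls and 2.1% below. Apart from members of gene lists and genes named because the diets differed, genes from here on were chosen for this separation and for a level of at least 5 CPM, so the separation is a condition of naming and not a result.

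The 3 diets did not stand at the same distance from the control. Among genes that rose, the median log2 fold change was 0.58 with desiccated thymus, 0.38 with the cytoplasmic extract and 0.77 with the nuclear extract, and among genes that fell it was -0.17, -0.14 and -0.22. These values share the same control libraries and come from genes chosen on their mean. A test across the 3 thymus diets that leaves the control out found 300 genes that differed among them, 2.05% of those tested. Of the 1030 genes, 159 (15.4%) were among these 300, 147 higher and 12 lower against the control, and 53 of the 579 with full separation (9.15%) were. For the other genes, a p that misses the threshold does not show that the diets act alike. A small pooled p does not show it either, since differences between the diets do not enter its spread. With the 9 thymus libraries fitted as 1 group, where such differences do enter, 360 of the 1030 genes passed. Without the nuclear extract, the mean of the other two diets changed 259 genes, 255 of them among the 1030.

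The inducible Hsp70 gene hsp-70 (CELE_C12C8.1, chromosome I, 9320325 to 9322519, WBcel235) had the largest decrease among changed genes of at least 5 CPM. The control libraries held 245, 287 and 358 CPM, a mean of 296 ± 57.0 (SD, n = 3). Desiccated thymus gave 102, 64.3 and 92.2 CPM, the cytoplasmic extract 90.5, 151 and 115 CPM, and the nuclear extract 58.6, 78.5 and 69.1 CPM. Every thymus library lay below every control, with the cytoplasmic extract nearest to it. The log2 fold change was -1.73 (SE 0.183), or 3.33-fold lower, with an adjusted p of 0.00155, and the diets did not differ past the threshold (adjusted p = 0.292).

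A pair of neighbouring genes of small heat shock proteins, which hold unfolded proteins in solution, fell as well. The control libraries of hsp-16.41 (chromosome V, 1805178 to 1805875) held 74.6, 95.6 and 95.2 CPM, and those of hsp-16.2 (chromosome V, 1804334 to 1804957) 59.2, 67.4 and 63.6 CPM. With thymus, hsp-16.41 ran from 23.4 to 59.8 CPM with a median of 30.1, and hsp-16.2 from 18.3 to 45.5 CPM with a median of 23.8. The highest thymus values of both genes came from cytoplasmic extract replicates 2 and 3, and these too were below all controls. The log2 fold changes were -1.38 (SE 0.192, adjusted p = 0.00519) and -1.24 (SE 0.183, adjusted p = 0.00605). Both calls were lost without the nuclear extract, at adjusted p = 0.0612 and 0.0619.

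The list of heat-inducible cytosolic chaperones has 9 members, of which 5 had enough reads to be tested. All 5 fell (100%, beside 1.94% over all genes), with a median of -1.38 against 0.00 over all genes. The other 4, all hsp-16 genes, had too few reads. Besides the 3 genes above, the Hsp70 family genes F44E5.4 (-1.40, SE 0.182, adjusted p = 0.000556) and F44E5.5 (-1.26, SE 0.178, adjusted p = 0.00111) fell. In F44E5.4 the controls held 10.05, 13.0 and 12.5 CPM and the thymus libraries 2.90 to 6.49 CPM with a median of 4.19, with no overlap. These genes are close copies of each other, so reads may be shared and their separate values are uncertain. The summed level of the 5 genes was 399 to 543 CPM in the controls and 107 to 267 CPM with thymus. All 5 calls were kept when any single library was left out, and 3 were kept without the nuclear extract.

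Some constitutive chaperones and co-chaperones were lower. Of 29 tested members, 6 fell (20.7%, beside 1.94% over all genes) and none rose (1 higher by unadjusted p under 0.05 and none by DESeq2), with a median of -0.08 and 25 of 29 values below 0. The largest change was in unc-23, a BAG-domain co-chaperone of Hsp70 known from muscle, with controls of 36.3, 54.4 and 44.6 CPM and thymus libraries between 24.5 and 33.2 CPM. All of its thymus values lay below its lowest control, and its change was -0.62 (SE 0.109, adjusted p = 0.0066). Its exons overlap those of T19A5.3, which averaged 0.814 CPM in the controls and did not pass (adjusted p = 0.177). The Hsp110 gene hsp-110 (-0.29) and the J-domain co-chaperone gene dnj-13 (-0.29) passed with full separation, at control means of 647 and 431 CPM, and the small heat shock gene sip-1, active in oocytes and embryos, fell by 0.22. The call of sip-1 was lost without control replicate 1 (adjusted p = 0.0507). DESeq2 called 11 members lower.

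Few chaperone genes of other compartments passed. Of 11 genes of the mitochondrial unfolded protein response, 1 fell (9.09%, beside 1.94% over all genes) and none rose (1 higher by unadjusted p under 0.05 and 1 by DESeq2). It was hsp-6, the mitochondrial Hsp70, with controls of 691, 733 and 749 CPM and a change of -0.18 (adjusted p = 0.00231). Of 20 genes of the endoplasmic reticulum response, 3 rose (15%) and 2 fell (10%), beside 5.11% and 1.94% over all genes, with a median of 0.03. The kinase gene pek-1 (-0.22) and the transcription factor gene xbp-1 (-0.16) fell and dnj-7 (0.20) and hsp-3 (0.16) rose; the call of hsp-3 was lost in 10 of the 12 fits with 1 library left out, all but control replicate 3 and cytoplasmic extract replicate 1. The count of higher members was 1 without control replicate 2 or 3, and that of lower members 1 without either of them or without cytoplasmic extract replicate 1 or 3.

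The smallest p-values among lower genes belonged to aip-1 and Y94H6A.10. The protein of aip-1 (CELE_F58E10.4, chromosome V, 14012333 to 14013644), a zinc finger factor that arsenite induces, binds the proteasome. Its controls held 131, 122 and 127 CPM, desiccated thymus 69.8, 62.4 and 68.4 CPM, the cytoplasmic extract 72.3, 78.7 and 80.9 CPM and the nuclear extract 63.6, 65.5 and 65.7 CPM. The groups were far apart and the spread within each diet small, and the log2 change was -0.87 (SE 0.0413, adjusted p = 5.88e-09). The diets differed (adjusted p = 0.0366), with the cytoplasmic extract nearest to the control.

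Y94H6A.10 (chromosome IV, 2710121 to 2710666) held 264, 269 and 261 CPM in the controls, 146, 144 and 142 CPM with desiccated thymus, 179, 203 and 199 CPM with the cytoplasmic extract and 152, 147 and 149 CPM with the nuclear extract. All thymus values lay below the controls, with log2 changes of -0.87, -0.45 and -0.83 in that order and of -0.72 on the mean (SE 0.0334, adjusted p = 5.88e-09). The cytoplasmic extract stood apart from the other diets (adjusted p of the difference 0.000117). R11A5.3 (-1.09, adjusted p = 3.14e-05) and scp-1 (-0.28, adjusted p = 0.000182), a gene for a regulator of the sterol-responsive factor SBP-1, had the next smallest p-values.

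**Figure D2:**
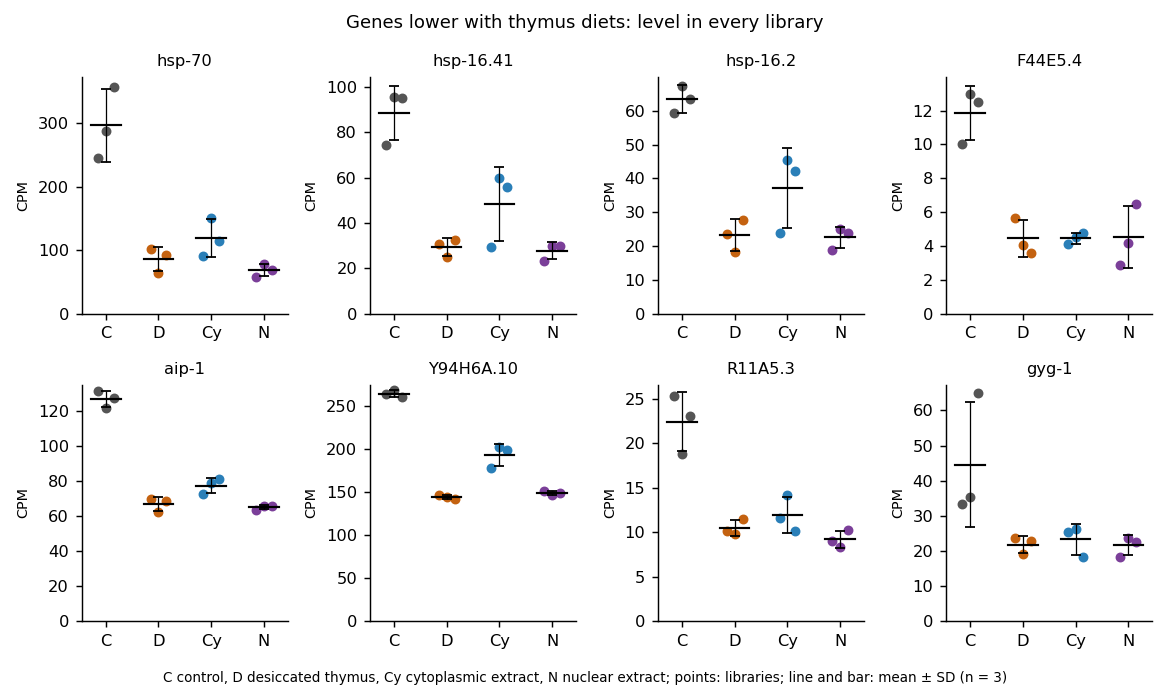
Level in CPM (vertical axes from 0) of 8 genes lower with thymus in each library, with the mean and SD of 3 libraries, for the control (C), desiccated thymus (D), the cytoplasmic extract (Cy) and the nuclear extract (N). The 9 thymus libraries lie below the 3 controls in every panel, as in hsp-70 with at most 151 CPM against at least 245. For all but F44E5.4 this separation was a condition of naming.

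Other decreases among the 12 largest concerned varied genes. The glycogenin gene gyg-1, which primes glycogen synthesis, had controls of 33.3, 35.3 and 65.0 CPM and thymus values of 18.3 to 26.2 CPM. Control replicate 3 was high, yet all thymus values were below the other controls too, and the change was -1.0 (SE 0.203, adjusted p = 0.0211). That call was lost without the nuclear extract (adjusted p = 0.117) or without desiccated thymus (0.0677).

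A pair of genes of cilia, the sensory endings of worm neurons, were in this group. The small GTPase gene arl-3 held 8.49, 9.26 and 10.9 CPM in the controls and 2.43 to 6.24 CPM with thymus, and changed by -1.31 (SE 0.170, adjusted p = 0.000444). Its exons overlap those of tps-2, a trehalose synthesis gene that held 145 CPM and itself fell by 0.65 (adjusted p = 0.0232), so reads of the overlap may belong to either gene. The intraflagellar transport gene dyf-3 held 10.1, 7.58 and 5.96 CPM in the controls and 3.78 to 5.57 CPM with thymus, a change of -0.84 (SE 0.139, adjusted p = 0.00222).

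The remaining 5 of the 12 were lact-4 (-0.77), a gene of the beta-lactamase domain family, tsp-2 (-0.69), a tetraspanin gene, cnp-3 (-0.67), unc-23 and the nuclear hormone receptor gene nhr-17 (-0.80). Exons of lact-4 overlap those of M05D6.3, which also fell (-1.29, adjusted p = 0.0128, at 3.01 CPM in the control). The call of nhr-17 (adjusted p = 0.0496) was lost when any 1 of 11 libraries was left out, all but cytoplasmic extract replicate 3, with an adjusted p of at most 0.132. The call of tsp-2 was lost without any 1 control library, desiccated thymus replicate 1 or 2, or cytoplasmic extract replicate 1 or 3, with an adjusted p of at most 0.0955. The call of cnp-3 was lost without the nuclear extract (0.062).

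Proteasome subunits, the parts of the complex that degrades proteins, had small changes with 1 sign. Of 33 subunits 8 fell (24.2%, beside 1.94% over all genes) and none rose (none higher by unadjusted p under 0.05 and none by DESeq2), with 33 of 33 values below 0 and a median of -0.09. The largest changes were in rpn-3 (-0.13, from 440 ± 8.89 CPM in the control), rpt-2 (-0.13, from 361 ± 10.2 CPM), pas-5 (-0.13) and pas-6 (-0.12), SD over 3 libraries. Their summed level was 8272 to 8372 CPM in the controls and 7672 to 8099 CPM with thymus, without overlap. The count of lower subunits moved with the scaling, the tool and single libraries: it was 0 with library totals alone, 12 with RLE size factors and 15 with DESeq2. It was 1 without control replicate 2, 3 without control replicate 1, without cytoplasmic extract replicate 1 or 3 or without nuclear extract replicate 3, 4 without replicate 3 of desiccated thymus, and 5 without its replicate 1 or 2 or nuclear extract replicate 2.

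Cytosolic ribosomal protein genes showed no such calls. Of 77 tested none passed with edgeR in either direction (1 higher and 1 lower by unadjusted p under 0.05 and none by DESeq2), and the median was -0.05. Of 44 nuclear-encoded genes of the respiratory chain none passed either (3 lower and none higher by unadjusted p under 0.05 and 2 lower and none higher by DESeq2), with a median of -0.04. Most values were still below 0, in 74 of 77 ribosomal protein genes and 38 of 44 respiratory chain genes. Small values of 1 sign were therefore not particular to the proteasome.

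Among genes that rose, srlf-34 (CELE_ZK970.7, chromosome II, 10312293 to 10312943) had the largest change of the genes with a name and at least 5 CPM. Its controls held 7.89, 6.30 and 9.14 CPM, desiccated thymus 28.7, 26.0 and 24.3 CPM, the cytoplasmic extract 27.7, 25.2 and 19.2 CPM and the nuclear extract 23.8, 17.5 and 30.0 CPM. The 3 diets overlapped each other and none overlapped the control. The log2 fold change was 1.67 (SE 0.181), or 3.18-fold, with an adjusted p of 0.000433. Its exons overlap those of gcy-5, which averaged 0.331 CPM in the controls and did not pass (adjusted p = 0.302).

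The carboxylesterase family gene cest-10 (CELE_C42D4.2, chromosome IV, 7180535 to 7182993) held 2.11, 2.08 and 1.99 CPM in the controls and 4.90 to 8.98 CPM with thymus, with a median of 5.91. Its controls were tight, and its change was 1.64 (SE 0.148, adjusted p = 1.36e-05). T05A12.4 (chromosome IV, 6887948 to 6897783), which had the smallest p among higher genes, held 29.1, 30.4 and 33.6 CPM in the controls. Desiccated thymus gave 52.5, 58.9 and 61.6 CPM, the cytoplasmic extract 62.7, 64.5 and 63.8 CPM and the nuclear extract 56.7, 58.6 and 56.7 CPM. All 3 diets reached nearly the same level, with a change of 0.94 (SE 0.0569, adjusted p = 1.4e-07) and an adjusted p of 0.348 for the difference among them.

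The pseudogene Y102A5C.5 (chromosome V, 16928328 to 16928999) rose from 5.22, 4.75 and 4.32 CPM to between 11.3 and 23.5 CPM, a change of 1.90 (SE 0.142, adjusted p = 1.43e-06). It differed among the diets (adjusted p = 0.0312), with the nuclear extract lowest. Because pseudogenes resemble other genes and what was done with multiply matching reads is not stated in the notes or labels, its value is uncertain. The acid phosphatase family gene acp-6 rose from 84.0, 89.8 and 92.2 CPM to between 108 and 166 CPM (0.62, adjusted p = 7.41e-07).

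**Figure D3:**
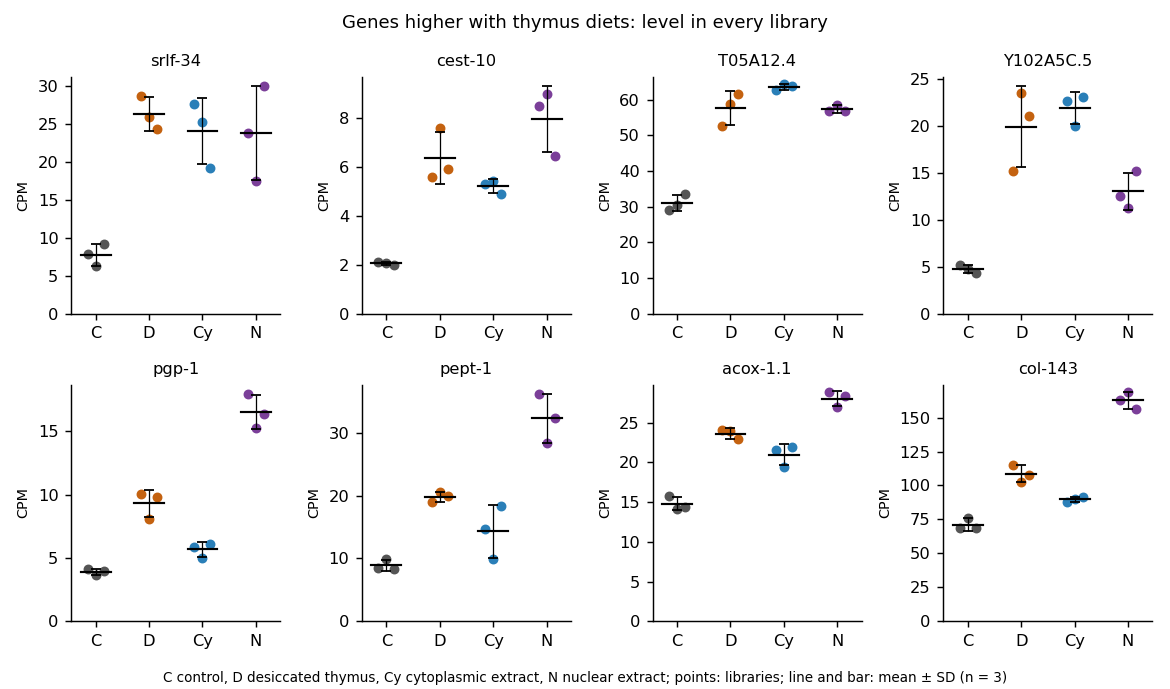
Level in CPM (vertical axes from 0) of 8 genes higher with thymus in each library, with the mean and SD of 3 libraries, for the control (C), desiccated thymus (D), the cytoplasmic extract (Cy) and the nuclear extract (N). In T05A12.4 the diets lie together at 52.5 to 64.5 CPM, whereas in pgp-1, pept-1 and col-143 the nuclear extract lies above the others.

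Several intestine markers were higher. Of 16 tested, 6 rose (37.5%) and 1, cpr-6 (-0.17), fell (6.25%), beside 5.11% and 1.94% over all genes. The median was 0.24, with 15 of 16 values above 0. The ABC transporter gene pgp-1 held 4.11, 3.66 and 3.98 CPM in the controls, 10.03, 8.07 and 9.79 CPM with desiccated thymus, 5.90, 4.99 and 6.13 CPM with the cytoplasmic extract and 15.2 to 18.0 CPM with the nuclear extract. Every diet lay above the control and the diets did not overlap each other. The pooled change was 1.29 (SE 0.117, adjusted p = 1.36e-05) and the diets differed (adjusted p = 6.85e-05). The call was lost, with a change of 1.42, when the 9 thymus libraries were fitted as 1 group of equal libraries (adjusted p = 0.0992).

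The peptide transporter pept-1, which takes up small peptides of digested protein across the gut's inner surface, held 8.45, 9.89 and 8.33 CPM in the controls. Its levels were 19.0, 20.6 and 19.9 CPM with desiccated thymus, 14.7, 9.95 and 18.4 CPM with the cytoplasmic extract and 36.3, 28.4 and 32.3 CPM with the nuclear extract. The second cytoplasmic extract library lay just above the highest control and the others well above it. The change was 1.23 (SE 0.153, adjusted p = 0.00053), and 0.0813 was the adjusted p with the thymus libraries as 1 group. The intermediate filament gene ifc-2 (0.53) and elt-2 (0.53), the GATA factor gene of intestinal identity, also rose.

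The summed level of the intestine markers was 2309 to 2513 CPM in the controls and 2240 to 2736 CPM with thymus, so that the groups overlapped. The count of 6 was 3 without control replicate 3, 3 without the nuclear extract or desiccated thymus, and 0 with the thymus libraries as 1 group. The call of elt-2 was lost without control replicate 2 (adjusted p = 0.0988) or 3 (0.0504).

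Nutrient and nucleoside transporters rose in 10 of 30 tested genes (33.3%, beside 5.11% over all genes). None fell (4 lower by unadjusted p under 0.05 and 1 by DESeq2). Their median was 0.21. Their summed level was 970 to 981 CPM in the controls and 956 to 1046 CPM with thymus, so that the groups overlapped. Besides pept-1, the amino acid transporter genes aat-7 (1.80, adjusted p = 0.00571, at 0.483 CPM in the control), aat-6 (0.91, adjusted p = 0.00563) and aat-4 (0.85, adjusted p = 0.0105) led the list. In aat-6 the controls held 2.59, 3.30 and 2.26 CPM, and the cytoplasmic extract, with 3.25, 2.87 and 3.36 CPM, overlapped them, while desiccated thymus with 4.62 to 7.42 CPM and the nuclear extract with 5.70 to 8.05 CPM did not. The diets differed in aat-6 (adjusted p = 0.0158) and aat-7 (0.0428). The count was 3 without the nuclear extract and 2 with the thymus libraries as 1 group, and at least 7 without any single library.

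Enzymes that attach sugar acids to foreign and internal compounds, the UDP-glucuronosyltransferases, rose in 12 of 58 tested genes (20.7%) and fell in 2 (3.45%). Over all genes 5.11% rose and 1.94% fell, and the median of the list was 0.24. The gene ugt-48 led with 1.58 (SE 0.147, adjusted p = 1.68e-05), from 1.44, 1.62 and 1.41 CPM in the controls to 5.60, 5.62 and 4.43 CPM with desiccated thymus, 2.87, 2.53 and 3.10 CPM with the cytoplasmic extract and 5.87, 5.58 and 6.58 CPM with the nuclear extract. The cytoplasmic extract lay between the control and the other diets (adjusted p of the difference 0.00643). Its exons overlap those of cft-1, which did not pass (0.51, adjusted p = 0.222). Next came ugt-31 (0.84) and ugt-17 (0.72), while ugt-13 fell by 1.23 from 1.83 CPM. The count of 12 was 6, 7 and 7 without control replicate 1, 2 and 3. The count of 2 lower was 0 without control replicate 2 or 3 and 1 without desiccated thymus replicate 2 or 3, cytoplasmic extract replicate 1 or 3, or nuclear extract replicate 1 or 2.

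Cytochrome P450 genes, whose enzymes oxidise lipids and foreign compounds, passed in 4 of 55 upward and 1 downward, beside 5.11% and 1.94% over all genes. They included cyp-29A4 (0.95, adjusted p = 0.00716) and cyp-35A2 (0.66, adjusted p = 0.00755), and cyp-13A2 (0.57), which differed among the diets (adjusted p = 0.0105). The lower one was cyp-35B1 (-0.47), whose call was lost without any 1 control or nuclear extract library or without cytoplasmic extract replicate 2, while 2 members were lower without cytoplasmic extract replicate 1 or 3. That of cyp-13A2 was lost without control replicate 2 or 3. Glutathione S-transferases, which couple glutathione to reactive compounds, fell in 3 of 39 genes (7.69%, beside 1.94% over all genes) and rose in none (3 higher by unadjusted p under 0.05 and 1 by DESeq2). The 3 were gstk-1 (-0.37), gst-1 (-0.24) and gst-7 (-0.16), with gst-1 at 214, 228 and 212 CPM in the controls and 165 to 198 CPM with thymus. The median of the list was 0.01.

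C-type lectins are sugar-binding proteins, of which many are secreted by the gut and induced by bacteria. They rose in 13 of 113 tested genes (11.5%, beside 5.11% over all genes) and none fell (3 lower by unadjusted p under 0.05 and 2 by DESeq2). The median was 0.26, and 90 of 113 values were above 0. Of 264 genes of the family in the table, 151 were too low to be tested. The gene clec-5 (chromosome III, 4881888 to 4883606) held 4.03, 4.78 and 3.82 CPM in the controls and 5.13 to 14.3 CPM with thymus, with a median of 9.15 and no overlap, and rose by 1.12 (SE 0.192, adjusted p = 0.0038). Genes at lower levels, such as clec-60 (1.24, 0.785 CPM in the control) and clec-82 (1.13, 0.351 CPM), rose by as much, and clec-52 rose by 1.07 from 3.21 CPM. The count of 13 was 7 without control replicate 1. The call of clec-82 was lost in 10 of the 12 fits with 1 library left out, the exceptions being desiccated thymus replicate 3 and cytoplasmic extract replicate 1, and that of clec-52 in 10, the exceptions being cytoplasmic extract replicates 2 and 3.

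Some galectins, which bind galactosides, were lower. Of 12 tested, 4 fell (33.3%, beside 1.94% over all genes) and none rose (2 higher by unadjusted p under 0.05 and 1 by DESeq2), with a median of -0.12. The gene lec-10 held 127, 140 and 137 CPM in the controls and 91.6 to 116 CPM with thymus (-0.36, SE 0.0455, adjusted p = 0.000305), and lec-6 held 218, 203 and 213 CPM against 152 to 202 CPM (-0.33, adjusted p = 0.011). Thymus values of both lay below every control. Of the 4, lec-11 (-0.48), whose exons overlap those of dnj-11, changed most and lec-12 (-0.19) least. The call of lec-11 was lost without control replicate 3, and that of lec-12 in 8 of the 12 fits with 1 library left out. The count was 2 without control replicate 1. Lysozymes and saposin-like proteins, which attack bacterial walls and membranes, rose in 3 (9.38%) and fell in 2 (6.25%) of 32 genes, beside 5.11% and 1.94% over all genes, with lys-10 (1.12) and lys-4 (0.64) higher and ilys-4 (-0.67) and spp-17 (-0.47) lower. The higher count was 1 without control replicate 2, and the lower count 1 without any 1 control, cytoplasmic extract replicate 1 or nuclear extract replicate 2 or 3.

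Enzymes of fatty acid breakdown rose in 10 of 51 genes (19.6%) and fell in 2 (3.92%), beside 5.11% and 1.94% over all genes, with a median of 0.08. Of these, acox-1.1 codes for an acyl-CoA oxidase of the peroxisomal pathway that shortens fatty acids and ascaroside pheromones, and it held 15.7, 14.2 and 14.4 CPM in the controls, 24.1, 24.0 and 22.9 CPM with desiccated thymus, 21.5, 19.5 and 22.0 CPM with the cytoplasmic extract and 28.9, 26.9 and 28.4 CPM with the nuclear extract. The replicates were tight and all diets lay above the control, with a change of 0.70 (SE 0.0698, adjusted p = 3.14e-05). The diets differed among each other (adjusted p = 0.0313). The carnitine palmitoyltransferase gene cpt-5 (1.01, adjusted p = 0.000497), the lysosomal lipase gene lipl-3 (0.90, adjusted p = 0.00292) and acox-1.6 (0.59, adjusted p = 0.00432) rose too. At least 9 members were higher without any single library, and 5 with the thymus libraries as 1 group. Of the 51 values 22 were below 0. The summed level of the list was 3236 to 3687 CPM in the controls and 3275 to 3571 CPM with thymus, so that the groups overlapped. The lower count of 2 was 0 or 1 in 9 of the 12 fits with 1 library left out, the exceptions being control replicate 2, desiccated thymus replicate 2 and nuclear extract replicate 3.

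Enzymes and regulators of fatty acid synthesis, elongation and desaturation rose in 6 of 22 genes (27.3%) and fell in 1 (4.55%). Over all genes 5.11% rose and 1.94% fell, and the median of the list was 0.14. The desaturase gene fat-3, which opens the path to long polyunsaturated fatty acids, held 112, 108 and 108 CPM in the controls and 144 to 171 CPM with thymus, without overlap. It rose by 0.50 (SE 0.0399, adjusted p = 2.67e-06), and the diets did not differ past the threshold (adjusted p = 0.148). The fatty acid synthase gene fasn-1 (0.30, adjusted p = 0.0265) and sbp-1 (0.27, adjusted p = 0.0298), the sterol-responsive transcription factor gene of fat synthesis, rose less, and dgat-2 (-0.45) fell, a call lost without control replicate 2 or 3, nuclear extract replicate 3 or replicate 1 of the cytoplasmic extract. Without desiccated thymus replicate 3 the adjusted p of fasn-1 was 0.0522. The call of sbp-1 was lost, with an adjusted p of at most 0.152, in 7 of the 12 fits with 1 library left out, those without nuclear extract replicate 3, control replicate 1 or 3, replicate 2 or 3 of desiccated thymus, or replicate 1 or 2 of the cytoplasmic extract. The count of 6 was 1 without the nuclear extract.

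**Figure D4:**
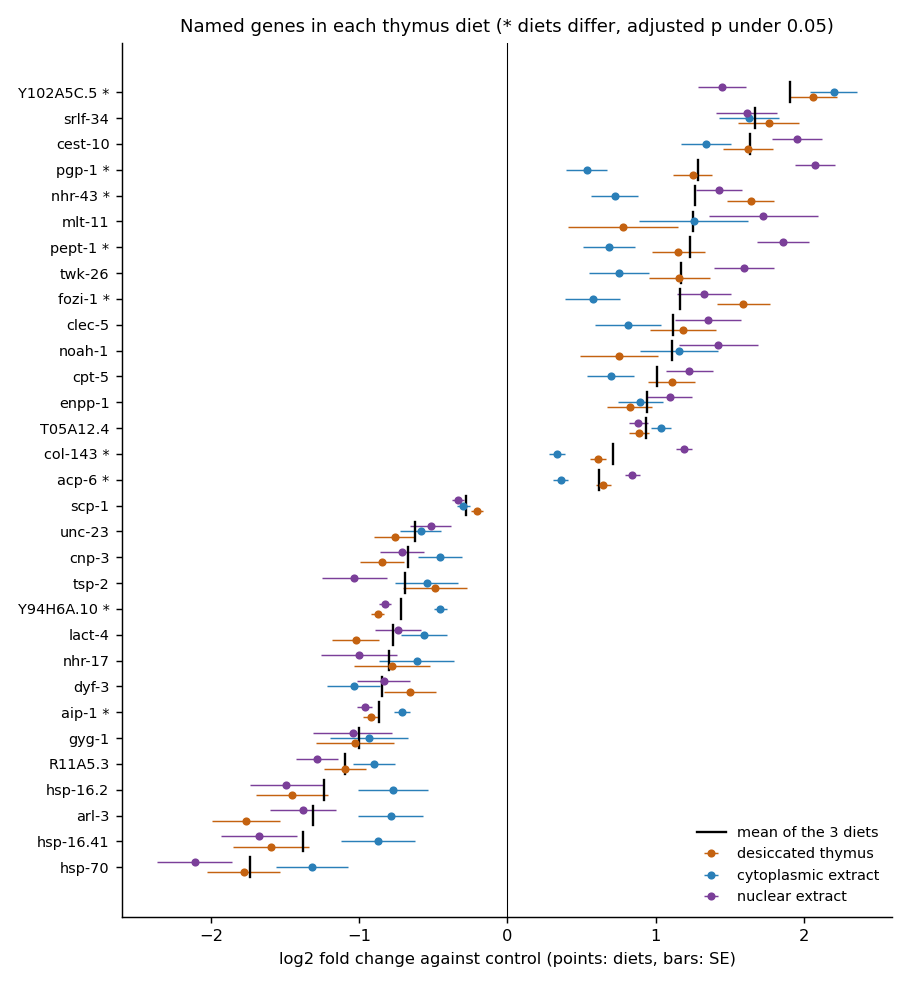
Log2 fold change against the control (horizontal axis) of 31 named genes in each thymus diet (points, bars show the SE) and of the mean of the 3 diets (black line), with an asterisk where the diets differ at an adjusted p under 0.05. All 3 points lie on the same side of 0 for each gene, which follows from how these genes were chosen. The spread is small in T05A12.4 and scp-1 and wide in pgp-1, pept-1 and col-143.

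Nuclear hormone receptors, a large family of ligand-controlled transcription factors in worms, rose in 14 of 182 genes (7.69%, beside 5.11% over all genes) and fell in 1, with a median of 0.14. That share is near the one over all genes. The gene nhr-43 (chromosome IV, 11899590 to 11902976) held 2.71, 3.56 and 3.17 CPM in the controls, 8.21, 10.3 and 11.1 CPM with desiccated thymus, 5.75, 5.09 and 4.82 CPM with the cytoplasmic extract and 8.61, 7.55 and 9.34 CPM with the nuclear extract. The cytoplasmic extract was between the control and the other diets, and the diets differed (adjusted p = 0.0128). Its change was 1.26 (SE 0.137, adjusted p = 8.05e-05). The genes nhr-210 (0.97), nhr-58 (0.87) and nhr-120 (0.82) followed at 1.14 to 2.88 CPM in the control, and the call of nhr-120 was kept in every fit run. The count of 14 was 8 without control replicate 1, 7 without control replicate 2 and 9 without desiccated thymus replicate 3.

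Other singly named genes that rose were the potassium channel gene twk-26 (1.17, adjusted p = 0.00107), the zinc finger gene fozi-1 (1.17, adjusted p = 0.000487) and enpp-1 (0.94, adjusted p = 0.000556), of the family that cleaves nucleotides outside cells. In fozi-1 the controls held 2.91, 2.90 and 1.83 CPM and the cytoplasmic extract 3.93, 4.08 and 3.40 CPM, below the 5.81 to 8.40 CPM of the other diets (adjusted p of the difference 0.0161). Control values of enpp-1 were 6.98, 8.67 and 7.57 CPM and thymus values 11.8 to 18.2 CPM.

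Cuticle collagens, which form the outer coat, had a median of 0.72 over 138 tested genes, and 123 of them were above 0. Only 10 passed upward (7.25%, near the 5.11% over all genes) and none downward (1 lower by unadjusted p under 0.05 and none by DESeq2). Summed levels were 1472 to 2421 CPM in the controls and 1861 to 3972 CPM with thymus, so that the ranges overlapped and the controls themselves were spread widely. The gene col-143 held 68.7, 76.4 and 68.6 CPM in the controls, 115, 103 and 108 CPM with desiccated thymus, 87.9, 90.0 and 91.8 CPM with the cytoplasmic extract and 163, 169 and 156 CPM with the nuclear extract. It rose by 0.71 (SE 0.0451, adjusted p = 1.95e-07), and the 4 groups did not overlap (adjusted p among the diets 1.35e-06).

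A similar order was seen in col-101, with 67.9, 83.8 and 78.8 CPM in the controls and 91.5 to 98.8, 105 to 116 and 157 to 174 CPM with the cytoplasmic extract, desiccated thymus and the nuclear extract. Its change was 0.65 (adjusted p = 1.8e-05), and the diets differed (adjusted p = 6.85e-05). With the thymus libraries as 1 group, both calls were lost (adjusted p = 0.12 and 0.138). The body-shape collagen gene dpy-7 rose by 1.32 (adjusted p = 0.00742) from 0.884 CPM, and col-158 (0.85), whose exons overlap those of nphp-4, and col-96 (0.67) rose too. DESeq2 called 22 collagens higher, and 1 was called with the thymus libraries as 1 group.

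Genes of molting and the apical matrix, the extracellular layer that shapes new cuticle, rose in 5 of 14 (35.7%, beside 5.11% over all genes). None fell (1 lower by unadjusted p under 0.05 and none by DESeq2), and the median was 0.68. The protease inhibitor-like gene mlt-11 held 1.79, 3.23 and 4.36 CPM in the controls and 4.45 to 13.0 CPM with thymus, and changed by 1.26 (SE 0.319, adjusted p = 0.0423). The apical matrix gene noah-1 held 3.39, 5.41 and 7.03 CPM against 8.57 to 17.5 CPM (1.11, adjusted p = 0.0146). The lowest thymus library of mlt-11 lay only just above its highest control. The call of mlt-11 was lost in 9 of the 12 fits with 1 library left out, the exceptions being control replicate 3, cytoplasmic extract replicate 3 and nuclear extract replicate 1, and that of noah-1 without control replicate 2 (adjusted p = 0.0635). The count of 5 was 1 without control replicate 2, 2 without control replicate 1, nuclear extract replicate 2 or replicate 1 or 2 of the cytoplasmic extract, and 3 without desiccated thymus replicate 1 or 3 or nuclear extract replicate 3.

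Markers of the hypodermis, the tissue that makes the cuticle, were examined beside the cuticle and molting genes. Of 14 tested, 4 rose (28.6%, beside 5.11% over all genes) and none fell (none lower by unadjusted p under 0.05 and none by DESeq2), with a median of 0.84. Their summed level was 207 to 240 CPM in the controls and 202 to 280 CPM with thymus, and 6 of the 14 had under 2 CPM. The higher ones were wrt-2, wrt-1, dpy-7 and wrt-10 (0.85), where wrt genes encode secreted proteins related to hedgehog. The control mean of wrt-2 was 0.208 CPM, its exons overlap those of pccb-1 at 229 CPM, and its call was lost in 9 of the 12 fits with 1 library left out, those without any 1 control or cytoplasmic extract library, desiccated thymus replicate 2 or 3, or nuclear extract replicate 2, with an adjusted p of at most 0.158. The control level of wrt-1 was 0.319, 0.330 and 0.382 CPM, against 0.415 to 3.18 CPM with thymus. The count was 1 without control replicate 1 and 2 without control replicate 2. Whether the share of this tissue in the worms had a part in the collagen and molting values was not tested.

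Lists of eggshell, yolk, DNA replication and germline genes had medians slightly below 0, and 1 yolk gene rose. The medians of histone genes (0.26) and sperm markers (0.21) were above 0. Of 16 eggshell and egg activation genes 4 fell (25%, beside 1.94% over all genes) and none rose (none higher by unadjusted p under 0.05 and none by DESeq2), with a median of -0.08. The eggshell gene egg-2 held 498, 494 and 480 CPM in the controls and 424 to 468 CPM with thymus, a change of -0.12 (adjusted p = 0.0165), and cpg-1 (-0.17), cpg-2 (-0.12) and chs-1 (-0.11) fell by similar amounts. That count was 0 with library totals alone, 9 with DESeq2, 7 with RLE size factors, 0 without the nuclear extract, 1 without control replicate 1 or 2, and 2 without control replicate 3. Of 25 germline and oocyte markers 2 fell (8%, beside 1.94% over all genes), oma-1 (-0.13) and spn-4 (-0.14). The summed level of these markers was 16624 to 17853 CPM in the controls and 15709 to 16791 CPM with thymus. None of these markers rose (1 higher by unadjusted p under 0.05 and none by DESeq2), and the part of germline content in the eggshell and proteasome values was not tested. The lower count was 4 without control replicate 3 and 1 without control replicate 1, desiccated thymus replicate 2 or 3, cytoplasmic extract replicate 3 or nuclear extract replicate 2 or 3, and it was 0 with library totals alone and 7 with DESeq2.

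The yolk protein gene vit-1 held 260, 335 and 297 CPM in the controls, 395, 442 and 450 CPM with desiccated thymus, 355, 362 and 474 CPM with the cytoplasmic extract and 811, 711 and 593 CPM with the nuclear extract. It rose by 0.73 (SE 0.131, adjusted p = 0.0149) and the diets differed (adjusted p = 0.0465). It was the only one of 7 yolk genes to pass upward (14.3%, beside 5.11% over all genes). The other 6 had values below 0, none of them passing with edgeR (2 lower by unadjusted p under 0.05 and 2 by DESeq2). Yolk genes resemble each other, so reads may be shared. The call of vit-1 was lost without control replicate 1 (adjusted p = 0.0734).

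**Figure D5:**
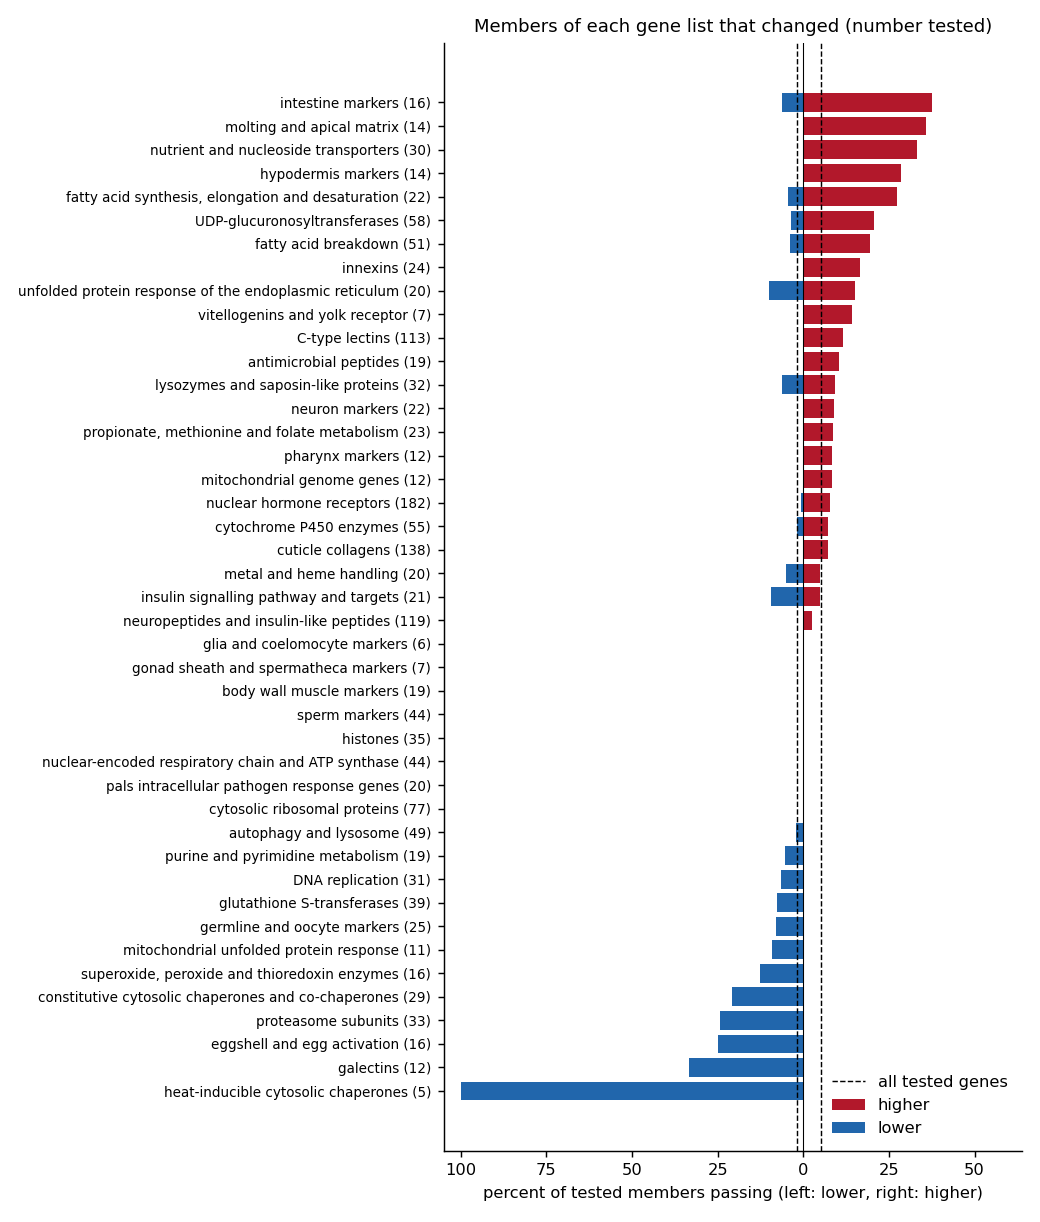
Percent of tested members of each of 43 gene lists that rose (right, red) or fell (left, blue) with the thymus diets, with the number tested in brackets and dashed lines at the shares over all tested genes (5.11% higher, 1.94% lower). Intestine, molting and transporter genes stand farthest to the right and heat-inducible chaperones, with 5 of 5, farthest to the left.

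Some changed genes owed their mean to a part of the diets. The pseudogene math-27, of the MATH domain family, has an uncertain value for the reason given for the pseudogene Y102A5C.5. On the mean, math-27 fell by 0.47 (adjusted p = 0.000232). Its controls held 49.9, 51.5 and 55.8 CPM and the cytoplasmic extract 44.5, 51.1 and 51.6 CPM, which overlapped them, while desiccated thymus held 30.3, 26.6 and 29.2 CPM and the nuclear extract 38.9, 39.3 and 36.8 CPM. The diets differed (adjusted p = 0.000182). In oac-14, an acyltransferase family gene, the controls held 50.5, 60.5 and 72.2 CPM, the cytoplasmic extract 52.7 to 72.7 CPM, the nuclear extract 44.7 to 48.4 CPM and desiccated thymus 28.7 to 33.8 CPM. The call of its mean change of -0.44 (adjusted p = 0.0398) was lost without any 1 nuclear extract library, control replicate 2 or 3, or desiccated thymus replicate 2 or 3, and the diets differed (adjusted p = 0.0127).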

How the data were processed

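Whole-number read counts per gene were used as the authors deposited them, made with Trimmomatic, STAR, featureCounts and DESeq2 per the submitters' processing notes, which give no versions. Neither the strand setting nor what was done with multiply matching reads is stated in those notes or labels, so overlapping genes and near-identical copies are uncertain. RNA was read in pairs of 150 bases, per the labels' protocols. Groups came from the sample titles, and each count column was given to the only title with its initials and number. Of 46929 genes, 46925 matched RefSeq genes of WBcel235, with 98.6% of starts equal, and 20979 had no counts. Replicate pairs differed by more than sampling noise (chi-square per degree of freedom 5.84 to 30.9, and 202 to 319 for pairs with desiccated thymus replicate 3), so none was counted as a library deposited more than once.

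Genes passing edgeR's filterByExpr (minimum count 10) were scaled by TMM (factors 0.874 to 1.03) and fitted with 1 mean per diet in edgeR 4.0.16, R 4.3.3 (robust quasi-likelihood, biological coefficient of variation 12.7%, 8 residual degrees of freedom). The contrast of the mean of the 3 diets with the control, and the difference among the 3 diets, were tested two-sided with Benjamini-Hochberg adjustment over 14610 genes at 0.05, with no fold threshold. Adjusted p-values without a named tool are those of this edgeR fit. Alternatives were other scalings, other filters, DESeq2 1.42.0, the replicate number as a block, fitting all 9 thymus libraries as 1 group, and leaving out a diet or a library.

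Genes named singly passed, had all 9 thymus libraries beyond the controls and at least 5 CPM. These were, in each direction, the 12 named genes that changed most and the 4 of smallest p. Up to 4 passing members per list of largest change could be named without these conditions, and 3 of each direction that differed most among diets. The members and the 43 lists were chosen with earlier results of these data known. In simulated data with 200 of 14610 genes changed, each alike in all 3 diets, this contrast recovered 29.3% of 1.25-fold changes. It found 52.0% of 1.5-fold, 63.3% of 2-fold and 88.7% of 4-fold changes, with 2 to 7 false calls in 3 draws.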

Additional observations from a re-analysis of the deposited data

Results flagged for a closer look

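For 21 of the named genes, the effects of the 3 thymus diets against the common control differed from each other by a test across the diets (quasi-likelihood test of edgeR, adjusted over all tested genes), so that their pooled change hides a difference. Collagen and intestinal genes stood highest with the nuclear extract and lowest, among the diets, with the cytoplasmic extract: col-143 (adjusted p of the difference 1.35e-06), col-101 (6.85e-05), pgp-1 (6.85e-05) and pept-1 (0.0105). The same order held in acp-6 (0.000617) and ugt-31 (0.0265). For vit-1 (0.0465), nhr-120 (0.0336) and acox-1.1 (0.0313) the nuclear extract was also highest. With nhr-43 (0.0128), fozi-1 (0.0161), cyp-13A2 (0.0105), aat-7 (0.0428), aat-6 (0.0158), ugt-48 (0.00643) and sbp-1 (0.0266), the cytoplasmic extract stood nearest to the control. Among lower genes the cytoplasmic extract was nearest to the control in Y94H6A.10 (0.000117), math-27 (0.000182), oac-14 (0.0127) and aip-1 (0.0366). In Y102A5C.5 (0.0312) the nuclear extract was nearest to it. The reason for these differences was not tested.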

How the results depend on the processing

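No value of a named gene reversed its direction under 23 alternatives. Of 123 named genes, 37 kept their call under every alternative run, 64 lost it without at least 1 single library, 68 without the nuclear extract, 64 with the thymus libraries as 1 group, 32 with library totals alone, 8 with the replicate block and 1 with DESeq2. The 1030 changed genes became 1623 with DESeq2, 360 with the thymus libraries as 1 group (all 360 among the 1030), 259 without the nuclear extract, and 567 to 1062 with 1 library left out. The 746 higher genes became 267 as 1 group, 199 without the nuclear extract and 372 to 736 with 1 library left out. The 284 lower genes became 101 with library totals alone, 664 with DESeq2, 93 as 1 group, 60 without the nuclear extract and 134 to 326 with 1 library left out. The 579 with full separation became 322 as 1 group, 1037 without the cytoplasmic extract, 231 without the nuclear extract and 448 to 856 with 1 library left out. The 300 that differed among diets became 551 with no filter on low counts, 722 with DESeq2 and 73 to 511 with 1 library left out. The cause of these shifts was not tested, and each fit that leaves libraries out also rests on fewer of them.

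The labels tie no replicate number to a shared culture or day. After the mean of each group was subtracted, libraries of equal number correlated above 0.1 in 15 of 18 pairs (-0.358 to 0.669), the 3 exceptions all with cytoplasmic extract replicate 1. Pairs of different number had a median of -0.234. Some of them still correlated as strongly, such as control replicate 1 with cytoplasmic extract replicate 3 (0.481) and control replicate 2 with cytoplasmic extract replicate 1 (0.468). Pairing was assumed only if every pair passed, so no block was used for the values reported. In 7 of 12 libraries the mean correlation with libraries of the other groups was highest for those of the same number. With the number as a block, 1120 genes changed, the calls of mlt-11 (adjusted p = 0.0527), nhr-17 (0.0944) and spp-17 (0.0645) were lost, and 16 collagens and 7 hypodermis markers were higher.

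Of 1978 list counts under the alternatives, 453 moved by more than 1.5 times. At this depth and with 3 controls, 52.0% of 1.5-fold changes were found in simulated counts with the same change in all 3 diets, so smaller changes were often missed there. That rate is over genes of all levels, and the rate at a given level was not worked out.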

Other observations

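Genes on chromosome X rose more often than genes on any autosome. Of 2092 tested genes on it, 192 (9.18%) rose and 18 (0.860%) fell, while of 12502 on the autosomes 4.42% rose and 2.13% fell, with 3.38% to 5.83% higher on single autosomes. Chromosome X is known to carry few genes of the germline. The count was chosen after the data had been seen and has no test. It was 66 with the thymus libraries as 1 group, 50 without the nuclear extract, 93 without control replicate 1 and 114 without control replicate 2, and the share was above that of each autosome in these fits too.

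Other lists lay near the shares over all genes, or rested on few genes. Of 22 neuron markers 2 rose (9.09%, beside 5.11% over all genes), unc-13 (0.58) and unc-104 (0.31), and the median of the list was 0.25. None of these markers rose without control replicate 1 or 2, nuclear extract replicate 3, replicate 2 or 3 of desiccated thymus, or cytoplasmic extract replicate 1, and 6 rose without control replicate 3. Innexins, which form gap junctions, rose in 4 of 24 (16.7%, beside 5.11% over all genes), with inx-5 (0.62) first, and in none without control replicate 1. Of 19 antimicrobial peptide genes 2 rose (10.5%, beside 5.11% over all genes), cnc-8 (0.97) and nlp-34 (0.90), with 18 of 19 values above 0. The count ran from 0 to 5 with 1 library left out, at 0 without control replicate 2 and at 5 without desiccated thymus replicate 1. The ferritin gene ftn-1, which stores iron, fell from 20.4, 23.2 and 30.9 CPM in the controls to between 14.5 and 19.0 CPM (-0.62, adjusted p = 0.00229). Of 35 tested histone genes none passed (none by unadjusted p under 0.05 and none by DESeq2), and of 19 body wall muscle markers none did (1 by unadjusted p under 0.05 and 1 by DESeq2).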
